A study of Mus musculus with 6 samples.

Results

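The unfolded protein response and the chaperones of the endoplasmic reticulum (ER) were examined in the mouse small intestine after deletion of Fitm2 (FIT2), an ER membrane protein needed for lipid droplet formation. The set had 34 genes, chosen by name as stress sensors, their transcription factors, chaperones, folding enzymes, degradation factors and translocon subunits. All 34 had a probe set with a single annotated gene symbol, out of 18193 genes on the array. Each gene was read by its brightest probe set, and all 34 passed the filter on dim genes, which kept 13042 genes. The 4 sensors were joined by 5 regulators, 9 chaperones and cofactors, 7 folding enzymes, 7 genes of ER-associated degradation and 2 translocon subunits.

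The KO mice carried ROSA26-CreERT2, a Cre recombinase made throughout the body and activated by tamoxifen, together with the alleles written L/L in the labels. The L/L mice carried those alleles without the recombinase and were also given tamoxifen, with injections of 100 µg per g body weight into the peritoneum scheduled on days 1, 2 and 3. The labels do not say which doses the mice taken on days 2 and 3 had received, so day and number of doses cannot be told apart. Small intestines were collected whole on days 2, 3 and 5, and RNA was pooled from 7, 6 and 7 KO mice and from 6, 6 and 8 L/L mice on those days. Every pool gave a single array, which leaves each genotype without replicates inside a day, and deletion of Fitm2 cannot be told apart from the presence of active CreERT2. No ages are stated for the mice.

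When unfolded proteins build up in the ER, 3 sensors in its membrane respond. IRE1 splices the Xbp1 mRNA into one that encodes an active transcription factor, PERK phosphorylates eIF2alpha and so favours translation of ATF4, and ATF6 is cut in the Golgi to release a transcription factor. Together they raise chaperones, folding enzymes and the machinery that retracts and degrades misfolded proteins. In the intestine, Paneth and goblet cells, which secrete large amounts of protein, depend on IRE1 and XBP1, and the epithelium has its own IRE1 isoform, Ern2. A 3' expression array reads mRNA abundance and none of these splicing, phosphorylation or cleavage steps.

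The target gene followed the labels. Fitm2 intensity was 123, 127 and 119.6 in KO on days 2, 3 and 5, against 193, 223 and 211 in L/L, with no overlap (mean log2 difference -0.76 ± 0.10, SD over 3 days; limma adjusted p = 0.125). The array medians of intensity lay between 57.8 and 59.8 on the 6 arrays. Enterocyte markers were measured for 18 of 20 genes, with a summed intensity of 227279 to 243907 in KO and 221733 to 243497 in L/L. Their median log2 differences were -0.01, 0.04 and 0.07 on days 2, 3 and 5. Single markers ran from -0.93 to 1.45 on day 5, so the sums do not show that each was unchanged.

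No gene of the set passed the test over the 3 days, which the deleted gene itself did not pass in this 6-array design. In limma's test of KO against L/L with day as a factor, 0 of 34 passed an adjusted p of 0.05, where 3 of 13042 genes passed (0.0230%). Their adjusted p lay between 0.392 and 0.987. At an unadjusted p under 0.05 limma counted 1 gene higher in KO, Creld2, and 0 lower, against backgrounds of 7.68% and 4.61% of all genes. The mean log2 differences ran from -0.24 for Canx to 0.19 for Creld2, with a median of -0.00 over the set and 0.01 over all genes kept. The lowest bound of any 95% interval was -0.51 (Canx) and the highest 0.47 (Herpud1), so a 2-fold mean difference in either direction lay outside each interval. The intervals take their width from differences among days, not among mice.

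By day, the set moved little as a whole. Its median log2 differences for days 2, 3 and 5 were 0.05, -0.00 and -0.05, against 0.01, -0.01 and 0.02 over all genes kept. In KO 22 genes were higher and 12 lower on day 2, 17 were higher and 17 lower on day 3, and 12 were higher and 22 lower on day 5. Of the 13042 genes kept, 7239, 6199 and 7038 were higher and 5772, 6826 and 5991 lower on those days. In the set the median absolute difference was 0.07, 0.07 and 0.11 on days 2, 3 and 5, against 0.07, 0.10 and 0.16 over all genes. No gene reached 2-fold on any day, a size that 2.27% of all genes reached on at least 1 day. At 1.2-fold, a minimum chosen after the values were seen, the count was 0 on day 2 (5.47% of all genes), 1 on day 3 (14.0%) and 4 on day 5 (32%). The gene on day 3 was Herpud1, and those on day 5 were Canx and Derl1, lower in KO, and Creld2 and Ddit3, higher in KO. A single day has 1 array per genotype and so no test.

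**Figure D1:**
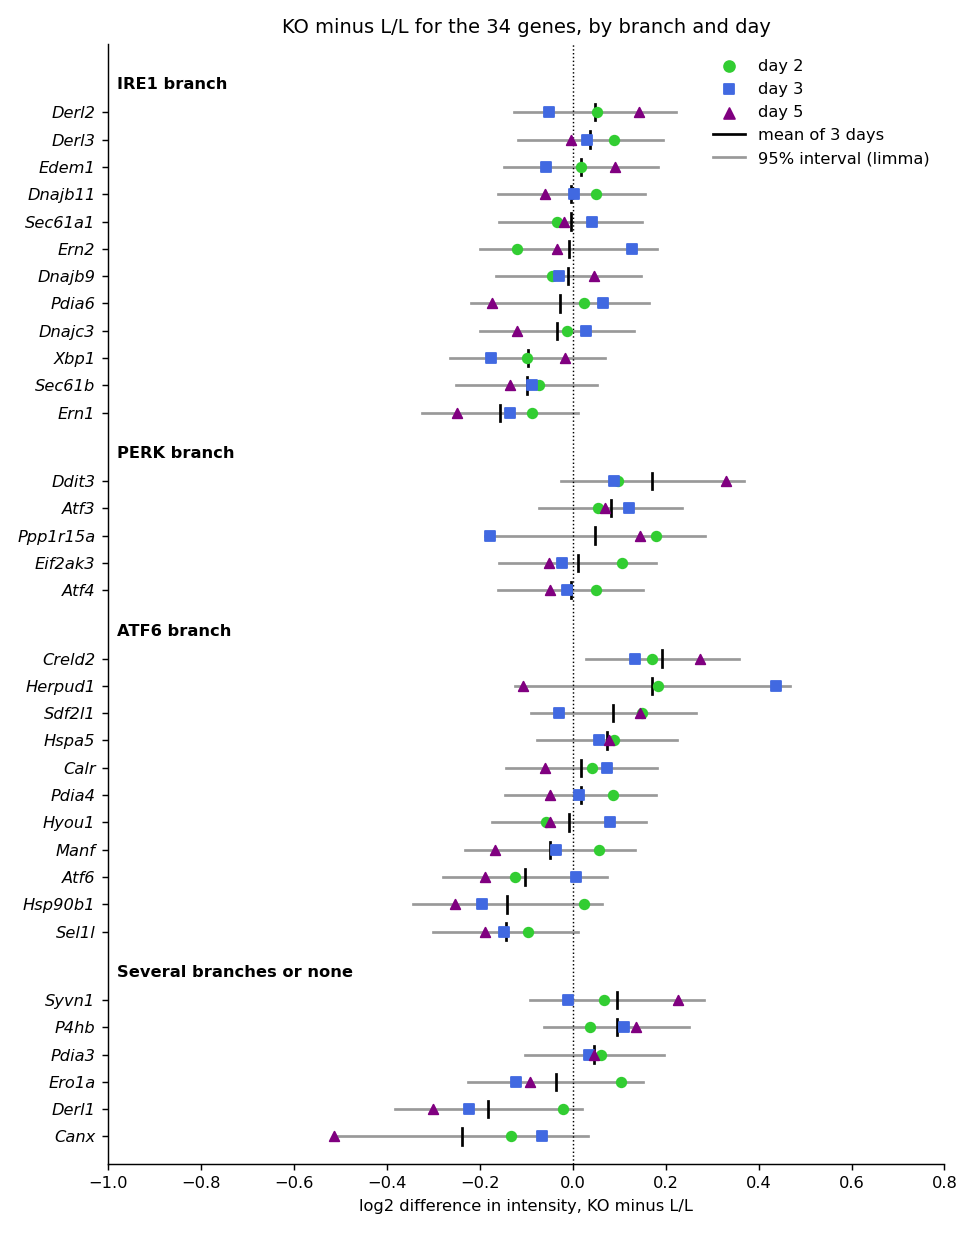
Log2 difference in intensity, KO minus L/L (x axis), of the 34 genes (rows, grouped by branch), with a green circle for day 2, a blue square for day 3, a purple triangle for day 5, a black tick for the mean and a grey line for limma's 95% interval. The interval lies above 0 for Creld2 and includes 0 for each of the others, and Canx on day 5 (-0.51) is the point farthest from 0.

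On each of the 3 days 6 genes were higher in KO (22.1% of all genes) and 6 were lower (17.4% of all genes), which is 17.6% of the set each way. The first were Atf3, Creld2, Ddit3, Hspa5, P4hb and Pdia3, and the second Canx, Derl1, Ern1, Sec61b, Sel1l and Xbp1. The 3 KO arrays lay wholly above the 3 L/L arrays for 1 gene, Creld2 (7.48% of all genes), and wholly below them for 2, Sec61b and Xbp1 (5.66%). These shares are near or below those over all genes.

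Set side by side, the branches were close to 0. The 12 genes assigned to the IRE1 branch had medians of -0.02, -0.01 and -0.03 on days 2, 3 and 5. The 5 of the PERK branch had 0.10, -0.01 and 0.07, and the 11 of the ATF6 branch 0.06, 0.01 and -0.06. Without day 2 the PERK branch median of the mean differences was -0.02, against 0.05 over the 3 days. Another 6 genes were assigned to several branches or to none, with medians of 0.05, -0.04 and -0.02. Many targets answer to more than 1 branch, so the assignment is a simplification from textbook knowledge.

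Among the sensors, Ern1, which encodes the widely expressed IRE1alpha, had the lowest mean difference on the brightest probe sets. Its intensity was 377, 352 and 403 in KO on days 2, 3 and 5, against 400.3, 387 and 479 in L/L. On this probe set Ern1 was thus lower in KO on each day, although KO day 5 exceeded 2 of the L/L arrays. The mean log2 difference was -0.16 ± 0.08 (SD over 3 days; limma adjusted p = 0.410). Both dimmer Ern1 probe sets that passed the filter were instead higher in KO on day 2, by 0.20 and 0.01. They were lower in KO on days 3 and 5, with means of -0.07 and -0.10. Ern2, the IRE1beta of mucus-secreting epithelium, was level at 140.4, 163 and 151 in KO and 153, 149 and 155 in L/L (mean -0.01). The KO values of Ern2 lay on both sides of the L/L values.

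Eif2ak3 (PERK) had 637, 631 and 652 in KO against 592, 641 and 676 in L/L, a mean of 0.01. Atf6 had 351, 376 and 352 in KO against 383, 374 and 401 in L/L, a mean of -0.10 ± 0.10 (SD over 3 days). KO and L/L overlapped for both sensors. On day 5 the brightest probe sets of all 4 sensor genes were lower in KO, by 0.03 to 0.25 on the log2 scale. Of the 13042 genes kept, 5991 were lower on that day. On day 3 the brightest probe sets of Atf6 and Ern2 were not lower. The dimmer Atf6 probe sets above the filter averaged -0.003 and -0.01, and differed by -0.02 and 0.05 on day 5.

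Xbp1, the transcription factor made by IRE1 splicing, was lower in KO on its brightest probe set. The intensity was 3775, 3643 and 3827 in KO on the 3 days, against 4043, 4113 and 3869 in L/L. The groups did not overlap, and the mean log2 difference was -0.10 ± 0.08 (SD over 3 days; limma adjusted p = 0.525). The other 3 Xbp1 probe sets had means between -0.02 and 0.00, so the direction rests on 1 probe set. Spliced and unspliced Xbp1 were not separated.

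The PERK arm runs through Atf4 and its target Ddit3 (CHOP), a transcription factor linked to cell death under lasting stress. On its brightest probe set Atf4 was the steadiest regulator, at 2424, 2414 and 2297 in KO against 2343, 2437 and 2377 in L/L. A dimmer Atf4 probe set above the filter differed by 0.16, -0.09 and -0.19. Ddit3 had 350.3, 385 and 382 in KO against 328, 362 and 304 in L/L. KO exceeded L/L throughout, with log2 differences of 0.10, 0.09 and 0.33, but the ranges overlapped (mean 0.17 ± 0.14 SD, limma adjusted p = 0.417). A dimmer Ddit3 probe set above the filter differed by 0.04, 0.03 and -0.42, with the opposite sign on day 5.

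Atf3, a stress-induced repressor, had 296, 394 and 379.6 in KO against 285, 362 and 362 in L/L (mean 0.08). Ppp1r15a (GADD34), the phosphatase subunit that lifts the translation block, had 166, 174 and 194 in KO against 147, 197 and 175 in L/L. Its difference was 0.18, -0.18 and 0.14 and had no constant direction. Both genes were dimmest on day 2 in either genotype.

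**Figure D2:**
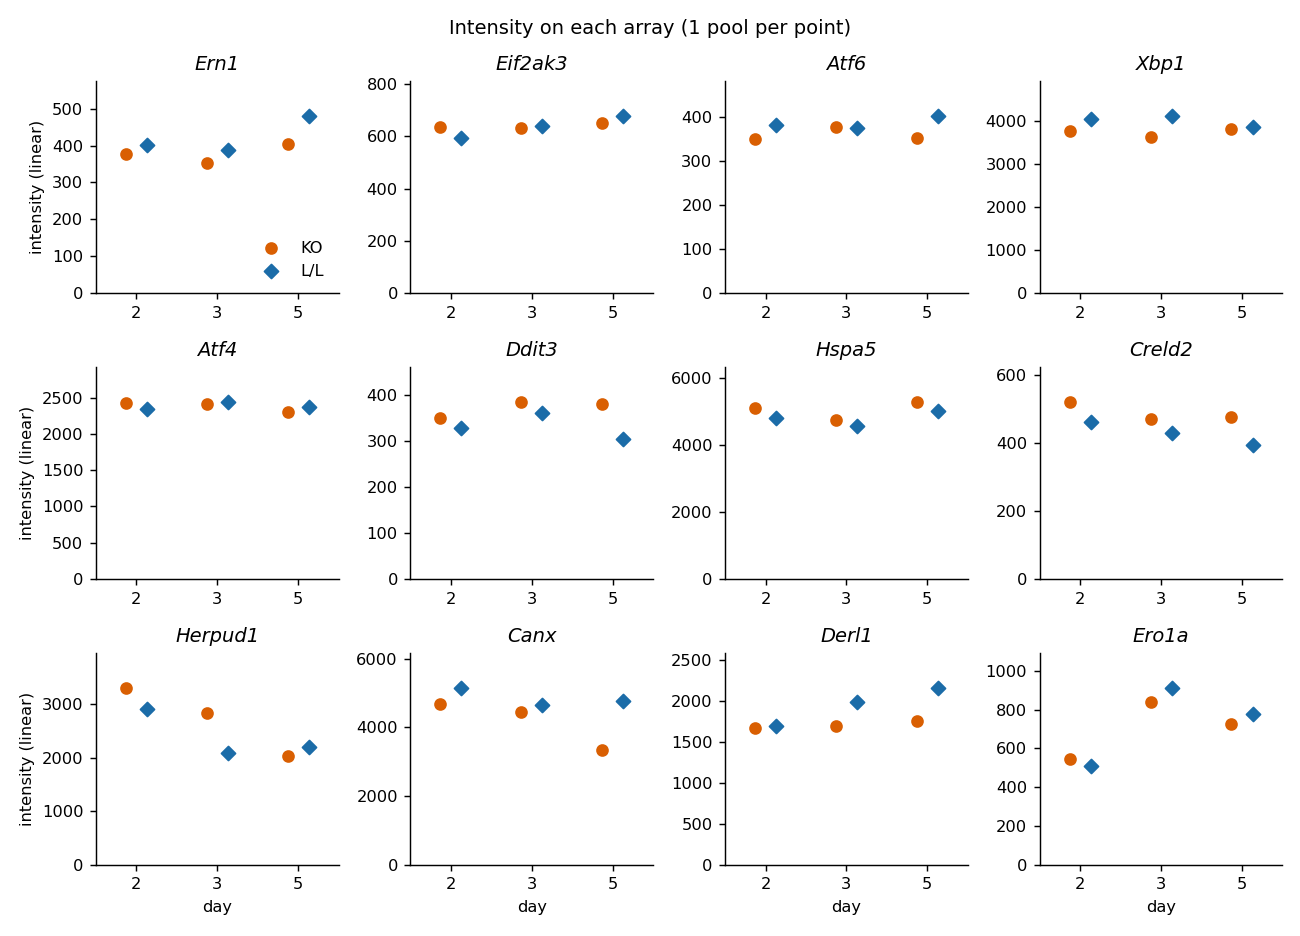
Linear intensity (y axis, from 0) on days 2, 3 and 5 (x axis) for 12 of the genes, 1 point per pooled array, with KO as orange circles and L/L as blue diamonds. Creld2 is higher in KO on each day with no overlap, Canx in KO day 5 (3339) stands below the other 5 arrays, and Ero1a is low on both day 2 arrays.

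The chaperones showed no common shift, with medians of 0.05, 0.00 and -0.05 over 9 genes. Hspa5 (BiP), the main ER Hsp70 and the usual readout of ER stress, had 5094, 4744 and 5267 in KO against 4792, 4565 and 4991 in L/L. KO was higher by 0.09, 0.06 and 0.08 on the 3 days, a mean 1.05-fold difference with a 95% interval of 0.948 to 1.17 (limma adjusted p = 0.579). The KO and L/L ranges overlapped. The other 2 Hspa5 probe sets, which are dimmer, differed by 0.08, -0.11 and -0.02 and by -0.12, 0.17 and -0.05.

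Hsp90b1 (GRP94), the ER Hsp90, went the other way on 2 of the days. It had 4111, 3658 and 3615 in KO against 4039.8, 4186 and 4309 in L/L, with differences of 0.03, -0.19 and -0.25. Its dimmer probe set differed by 0.03, -0.20 and -0.12. The mean of the brightest was -0.14 ± 0.15 (SD over 3 days; limma adjusted p = 0.468).

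Creld2, an ER-stress-induced folding factor, was the member with the highest mean difference. It had 521, 472 and 476 in KO against 462, 431 and 394 in L/L, and each KO array exceeded each L/L array. The mean was 1.14-fold (log2 0.19 ± 0.07 SD over 3 days, 95% interval 0.03 to 0.36), with an unadjusted p of 0.0295 in limma that did not hold over all genes (adjusted p = 0.392). Creld2 has 1 probe set with its symbol alone, so no second measurement is at hand.

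The remaining chaperones lay between -0.05 and 0.09 on average on their brightest probe sets. They were the Hsp70 cofactors Dnajb9, Dnajb11 and Dnajc3 (-0.01, -0.00 and -0.03), the Hsp110-type Hyou1 (-0.01), the secreted stress factor Manf (-0.05) and Sdf2l1 (0.09), which works with BiP. Sdf2l1 was 0.15 higher on days 2 and 5 and 0.03 lower on day 3. The dimmer Dnajc3 probe sets above the filter were farther from 0, with averages of -0.16, -0.13, -0.12 and -0.26. On day 5 these differed by -0.27, -0.24, -0.18 and -0.60.

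The ER stress response element (ERSE) is the promoter motif that ATF6 binds together with NF-Y. It was searched as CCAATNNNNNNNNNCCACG on both strands in the RefSeq promoter windows of GRCm38.p6, from 250 bases before to 50 bases after a gene's start. Of the 34 genes 28 were listed, with 29 windows, and 9 windows (31.0%) of 9 genes held it, against 39 of 32851 windows of all genes (0.119%). The elements are shown because the chaperone genes of the set are known for this motif. CCAAT and CCACG are in capitals, each element written in the direction that starts with CCAAT.
Calr: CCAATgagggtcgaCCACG
Canx: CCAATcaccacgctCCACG
Creld2: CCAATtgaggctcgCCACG
Derl3: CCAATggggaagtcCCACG
Dnajc3: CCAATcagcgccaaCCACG
Hsp90b1, farther element: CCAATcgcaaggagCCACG
Hsp90b1, nearer element: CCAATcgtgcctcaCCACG
Hspa5: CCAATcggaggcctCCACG
Pdia6: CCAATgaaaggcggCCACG
Syvn1: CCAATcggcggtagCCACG

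All 10 elements lay 26 to 212 bases before the start, 6 on the strand of the gene and 4 on the other. ERSE-II, searched as ATTGGNCCACG, was found in 2 genes (0.0365% of all windows), Dnajb11 and Herpud1.
Dnajb11: ATTGGcCCACG
Herpud1: ATTGGgCCACG

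Genes with an ERSE did not move together between the genotypes. Their mean differences ran from -0.24 (Canx) to 0.19 (Creld2), with a median of 0.02 over the 9, and 0.02 over the 19 listed genes without one. By day the 9 genes had medians of 0.04, 0.03 and -0.06, and on day 5 in KO 3 were higher and 6 lower. The half-site CCACG alone, part of both elements, was in 75.9% of member windows and 32.8% of all. The UPRE core TGACGTGG was in 0 of 29 windows and 0.676% of all, and the ATF4-type element TTGCATCA in those of Atf3 and Herpud1, against 0.895% of all. These are letter matches and show no binding.

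The upstream windows of 4 genes are given to set the element in its surroundings: Hspa5 as the standard readout, Creld2 and Canx as the ends of the range, and Herpud1 for ERSE-II. Each runs 5′ to 3′ on the gene's strand over the 250 bases before the start, with the ERSE or ERSE-II in capitals. Hspa5 is at chr2:34771840-34772089 on the plus strand, Creld2 at chr15:88819396-88819645 on the plus strand, Canx at chr11:50325674-50325923 on the minus strand and Herpud1 at chr8:94386179-94386428 on the plus strand. In Creld2 the element lies on the opposite strand and so reads as its reverse complement.
Hspa5: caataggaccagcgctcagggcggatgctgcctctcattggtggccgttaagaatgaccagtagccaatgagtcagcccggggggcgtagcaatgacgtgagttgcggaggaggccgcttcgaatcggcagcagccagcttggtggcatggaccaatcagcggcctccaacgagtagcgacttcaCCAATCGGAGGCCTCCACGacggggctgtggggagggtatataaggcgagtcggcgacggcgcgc
Creld2: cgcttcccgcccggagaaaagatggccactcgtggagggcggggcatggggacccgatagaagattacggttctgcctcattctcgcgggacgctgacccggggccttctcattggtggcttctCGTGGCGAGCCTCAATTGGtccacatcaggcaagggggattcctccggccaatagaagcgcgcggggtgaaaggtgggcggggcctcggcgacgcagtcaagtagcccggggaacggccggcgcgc
Canx: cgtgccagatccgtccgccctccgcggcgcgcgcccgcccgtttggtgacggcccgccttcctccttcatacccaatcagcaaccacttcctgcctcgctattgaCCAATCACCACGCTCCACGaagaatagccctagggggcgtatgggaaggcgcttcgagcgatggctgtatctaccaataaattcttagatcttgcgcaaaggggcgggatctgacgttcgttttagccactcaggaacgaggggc
Herpud1: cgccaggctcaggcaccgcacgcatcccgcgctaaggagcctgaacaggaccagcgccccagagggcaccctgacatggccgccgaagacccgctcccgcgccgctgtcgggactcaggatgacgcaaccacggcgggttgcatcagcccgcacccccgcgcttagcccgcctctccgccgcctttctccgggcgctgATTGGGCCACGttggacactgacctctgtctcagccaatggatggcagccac

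Among the folding enzymes, Canx had the mean difference of largest size on the brightest probe sets, -0.24 against -0.04 to 0.09 for the others. Calnexin, its product, is the membrane lectin that holds newly made glycoproteins until they fold. Canx had 4692, 4431 and 3339 in KO against 5145, 4637 and 4771 in L/L, differences of -0.13, -0.07 and -0.51. It stood at 0.70-fold on day 5, and both other probe sets gave the same picture on that day, at -0.70 and -0.65. On day 2 those 2 differed by -0.05 each and on day 3 by -0.03 and -0.29.

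The change of the Canx difference with day was -0.14 per day on the log2 scale (95% interval -0.28 to -0.01). That slope had an unadjusted p of 0.0439 in limma and did not pass over all genes (adjusted p = 0.256). It was the 1 slope in the set at an unadjusted p under 0.05, a level that 18.4% of all genes reached. After adjustment 0 members passed the slope test, against 160 genes, or 1.23% of all. Over the 3 days Canx averaged -0.24 ± 0.24 (SD over 3 days; limma adjusted p = 0.415), and -0.10 without day 5.

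Calr, the soluble lectin chaperone related to calnexin, averaged 0.02 and differed by 0.04, 0.07 and -0.06. The dimmer Calr probe sets differed by -0.01, 0.00 and -0.24 and by -0.05, 0.03 and -0.06. P4hb, the protein disulphide isomerase PDI, had 12246, 12943 and 10371 in KO against 11935, 11992 and 9442 in L/L. It was higher in KO on each day, by 0.04, 0.11 and 0.14 (limma adjusted p = 0.513), while both genotypes were lower on day 5 than before. The relatives Pdia3, Pdia4 and Pdia6 averaged 0.05, 0.02 and -0.03.

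Pdia6 had 1150.1, 1072 and 736 in KO against 1131, 1024 and 831 in L/L, so that the day 5 arrays were the lowest of each genotype. Ero1a, the oxidase that recharges PDI and carries the older name Ero1l, averaged -0.04. The dimmer Ero1a probe sets differed by 0.35, -0.05 and -0.09 and by 0.09, 0.10 and -0.17. On the brightest probe set its level differed more between days than between genotypes. It had 545, 839 and 728 in KO against 507, 912 and 777 in L/L, so both day 2 arrays lay below the other 4.

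The degradation genes held the largest difference of day 3. Herpud1 encodes a ubiquitin-like ER protein that helps assemble the retrotranslocation complex. All 3 branches can induce it, and it was counted here with the ATF6 branch. Herpud1 had 3306, 2840.3 and 2035 in KO against 2910.2, 2096 and 2193 in L/L. It was 1.14-fold and 1.35-fold higher in KO on days 2 and 3 and 0.93-fold on day 5. The dimmer Herpud1 probe set followed it, at 0.20, 0.22 and -0.18 on the log2 scale. The mean of the brightest, 0.17 ± 0.27 (SD over 3 days), had a spread larger than itself (limma adjusted p = 0.525), and its slope of -0.12 per day did not pass (adjusted p = 0.434).

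Derl1, a candidate channel subunit for retrotranslocation, had 1672, 1697 and 1751 in KO against 1697, 1981 and 2157 in L/L. The differences were -0.02, -0.22 and -0.30, and the slope of -0.09 per day did not pass (limma adjusted p = 0.428). Between days 2 and 5 the KO arrays differed by 0.07 and the L/L arrays by 0.35. The other 3 Derl1 probe sets were also lower in KO on day 5, by 0.16 to 0.21, but on day 3 they differed by -0.14 to 0.06. The mean was -0.18 ± 0.14 (SD over 3 days; limma adjusted p = 0.412).

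Sel1l, the scaffold of the ubiquitin ligase complex, had 1668, 1489.9 and 1583 in KO against 1783, 1651 and 1805 in L/L. It was lower by 0.10, 0.15 and 0.19 on the 3 days (mean -0.14 ± 0.05 SD, limma adjusted p = 0.410), the KO day 2 array lying just above L/L day 3. Syvn1 (HRD1), the ligase itself, had 638, 605 and 623 in KO against 609, 609.8 and 533 in L/L. Its mean was 0.09, and the second Syvn1 probe set was higher in KO on each day, by 0.14, 0.09 and 0.12. The dimmer Sel1l probe sets above the filter averaged -0.13, -0.01, -0.05 and -0.13. The probe set at -0.01 was 0.05 higher in KO on day 5, and that at -0.05 was 0.10 higher on day 3. On their brightest probe sets, partners in 1 complex thus lay on opposite sides of 0, neither past the test.

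Edem1, which extracts misfolded glycoproteins from the folding cycle, averaged 0.02. Derl2 had 1038, 1045 and 1250.2 in KO against 1001, 1083 and 1133 in L/L, differences of 0.05, -0.05 and 0.14. Its dimmer probe set had differences of -0.08, -0.21 and -0.37 and so disagreed with the brightest. Derl3, the derlin of secretory tissues, was the dimmest gene of the set, between 79.8 and 86.1 on all 6 arrays, and averaged 0.04.

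The translocon, through which new proteins enter the ER, was represented by Sec61a1 (mean -0.00) and Sec61b. Sec61b had 3032, 3038 and 2772 in KO against 3189.99, 3230.3 and 3047 in L/L, with no overlap. The differences of -0.07, -0.09 and -0.14 gave a mean of -0.10 ± 0.03 (SD over 3 days; limma adjusted p = 0.486). The brightest Sec61a1 probe set differed by at most 0.04 on any day. The other 5 ranged on day 5 from -0.55 to 0.07, and 4 of them were lower in KO.

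Probe sets of the same gene gave a further look at day 5. Of the 82 probe sets of the 34 genes 75 passed the filter, and 20 genes had several. On day 5 every such probe set was lower in KO for 10 of the 20 genes (50%), against 29.8% of the 5857 genes with several. For 1 of the 20, Syvn1, every one was higher (5%), against 32.3%. The 10 were Atf4, Calr, Canx, Derl1, Dnajc3, Ern1, Ero1a, Herpud1, Hsp90b1 and Hyou1. Over the 3 days the probe sets of 9 genes disagreed in the sign of their mean. Probe sets of 1 gene share an array and are not replicates, and day 5 has 1 array per genotype.

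**Figure D3:**
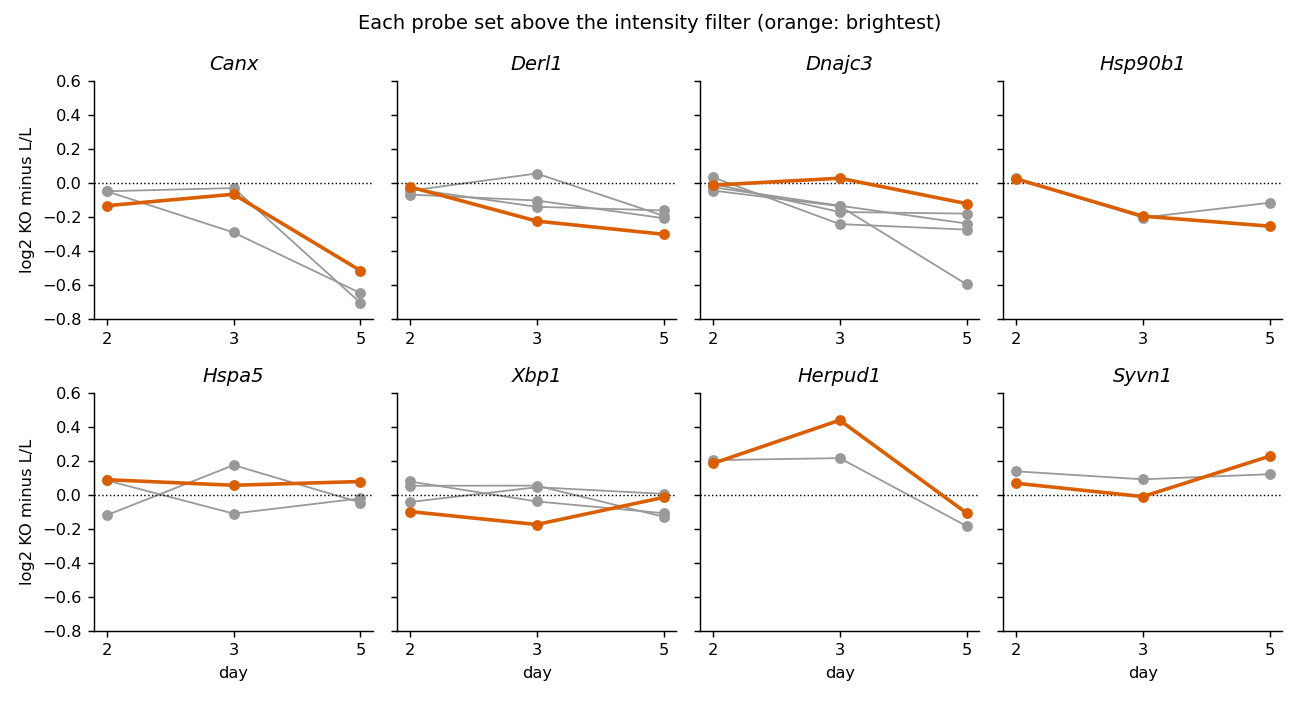
Log2 difference, KO minus L/L (y axis), on days 2, 3 and 5 (x axis) for each probe set above the intensity filter of 8 genes; orange marks the brightest probe set and grey the others. All 3 Canx probe sets lie between -0.70 and -0.51 on day 5. On that day those of Hspa5 lie between -0.05 and 0.08, and those of Xbp1 between -0.13 and 0.01.

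For most of the set, the L/L arrays differed more between days than KO and L/L did within a day. The range over the 3 L/L arrays exceeded the largest genotype difference in 23 of 34 genes (67.6%), against 48.8% of all genes kept. The median range was 0.19 in the set, and the median of the largest genotype difference was 0.14; over all genes they were 0.21 each. These quantities share the L/L arrays. Ero1a had the widest L/L range, 0.85, followed by Sdf2l1 (0.49), Herpud1 (0.47) and Pdia6 (0.45).

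KO arrays followed the same course for several of these. From day 2 to day 5, Pdia6 differed by -0.64 in KO and -0.45 in L/L, Manf by -0.57 and -0.35, and Sdf2l1 by -0.50 and -0.49. Herpud1 differed by -0.70 in KO and -0.41 in L/L. Ero1a was higher on day 3 than on day 2, by 0.62 in KO and 0.85 in L/L. Canx was the clearest exception, at -0.49 in KO and -0.11 in L/L from day 2 to day 5. With 1 array per genotype and day none of these changes has a test.

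**Figure D4:**
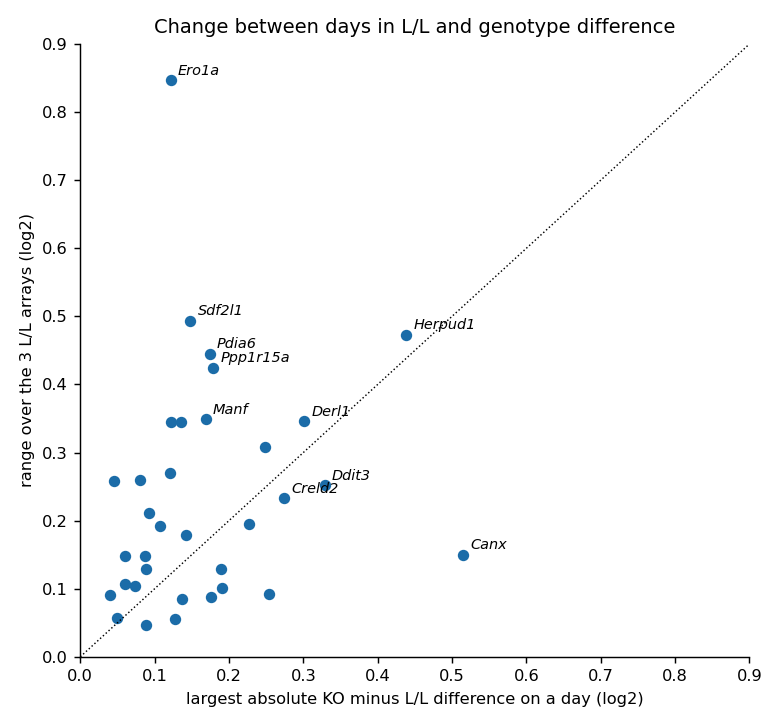
For each of the 34 genes, the range of log2 intensity over the 3 L/L arrays (y axis) against the largest absolute KO minus L/L difference on any day (x axis); the dotted line marks equality. Of the genes 23 lie above the line, Ero1a highest at 0.85, and Canx lies far below it at a genotype difference of 0.51.

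Beyond the 34 genes, 117 others of the same pathways were listed, of which 112 were measured. None passed the test over the 3 days, and 9 were higher and 3 lower in KO at an unadjusted p under 0.05 in limma, a level that 7.68% and 4.61% of all genes reached. Their median difference was 0.00. The arms were not alike in their counts: 7 of the 9 were among the 14 genes of the PERK and ATF4 arm, whose medians were 0.27, 0.10 and 0.30 on days 2, 3 and 5. In that arm 7 of 14 genes were thus at that level, against the 7.68% of all genes. On each day 8 of the 14 were higher in KO and 0 lower, where 22.1% and 17.4% of all genes were. The lists were chosen with earlier results of these data known, so these counts are description only. Both counts and the medians include Eif2ak2 and Eif2ak4, which encode eIF2alpha kinases other than PERK. Eif2ak4 passed the filter through its KO values. The counts and medians also include Vldlr, whose mean difference was 0.08 without probe sets that can bind several transcripts. Whether the arms differ was not tested.

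The largest mean differences of that arm were those of Vldlr (0.89), a lipoprotein receptor, Ddit4 (0.66), an inhibitor of mTORC1, and Nupr1 (0.62), a stress-induced chromatin protein that is also on the Paneth cell list. Vldlr had 71.5, 84.8 and 176 in KO against 52.0, 50.5 and 64.5 in L/L, with no overlap (limma adjusted p = 0.381). Its difference grew by 0.33 per day, which passed limma's slope test over all genes (adjusted p = 0.0454). Without probe sets that can bind several transcripts the mean difference was 0.08 and the slope 0.18 (limma adjusted p = 0.781 and 0.149). The slope call was also lost without the filter (adjusted p = 0.169) and with the order of days in place of the day (adjusted p = 0.0689).

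Ddit4 had 736, 935 and 845 in KO against 582, 486 and 524 in L/L. Nupr1 had 248, 261 and 344 in KO against 194, 152 and 206 in L/L. Neither overlapped, and neither passed (limma adjusted p = 0.363 and 0.335). The other 4 at an unadjusted p under 0.05 were Sesn2 (0.34), Asns (0.27), and the eIF2alpha kinases Eif2ak2 (PKR; 0.45) and Eif2ak4 (GCN2). Eif2ak4 had 49.7, 53.3 and 51.5 in KO against 33.9, 49.3 and 32.2 in L/L, of which the day 2 and day 5 values lie below the intensity threshold of 38.9. It passed the filter through its KO values, so its place among the 7 supports nothing. Trib3 and Chac1, which PERK and CHOP induce under ER stress, had no constant direction. Trib3 differed by -0.00, -0.08 and 0.27 on days 2, 3 and 5. Chac1 differed by 0.33, 0.04 and -0.55, a slope of -0.29 per day that did not pass (limma adjusted p = 0.0548).

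The other lists stayed closer to 0. Regulators of the ATF6 and IRE1 kind had a median mean difference of 0.02 over 15 genes, led by Wfs1 (-0.20), Traf2 (0.18) and Mbtps2 (0.15). Further chaperones and folding enzymes had 0.01 over 28, with Prdx4 (-0.36), Fkbp14 (0.29) and Agr2 (0.24) farthest out. Further degradation genes had 0.03 over 23, with Svip (-0.92), Marchf6 (-0.29) and Ube2g2 (0.20). Translocation and glycosylation genes had -0.04 over 32, with Stt3b (-0.23), Spcs2 (-0.22) and Kdelr3 (0.22). None of these passed either test, and Svip, an inhibitor of ER-associated degradation, had 718, 340.3 and 273 in KO against 749, 713 and 843 in L/L.

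No marker in the cell type lists passed the test over the 3 days. In the slope test 3 Paneth cell markers, 1 enterocyte marker and 2 proliferation markers passed, against 1.23% of all genes. Paneth cell markers, measured for 11 of 18 genes, had medians of 0.14, 0.40 and 1.07 and a summed intensity of 51985 to 67098 in KO and 36553 to 53552 in L/L. Among them, the defensin Defa31 had 10116 in KO day 5 and 35.3, below the intensity threshold, in L/L day 5. Defa31 is part of the sums of both genotypes, so their ranges depend in part on this gene. Goblet cell markers (14 of 15) had medians of 0.04, 0.21 and 0.09, with sums without Ern2 of 85369 to 88992 in KO and 76063 to 83890 in L/L. Proliferation markers (18 of 20) had 0.07, -0.07 and -0.39, with sums of 8704 to 11037 in KO and 10194 to 11840 in L/L. In such bulk samples fewer cells of a type and less RNA per cell cannot be told apart.

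Pancreatic acinar markers, from a tissue rich in ER chaperones that can adhere to the duodenum, were measured for 11 of 20 genes. Their medians were 0.02, 0.44 and -0.07, with sums of 1755 to 1922 in KO and 1306 to 1603 in L/L. Plasma cell markers (9 of 13, the members Xbp1 and Derl3 among them) had medians of 0.09, -0.15 and 0.01, with sums without those members of 1950.2 to 3056 in KO and 1851 to 2223 in L/L. The part of these shifts in the values of the ER genes was not tested. Ern2, also on the goblet list, and Derl3, also on the plasma cell list, differed by -0.03 and -0.00 on day 5.

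**Figure D5:**
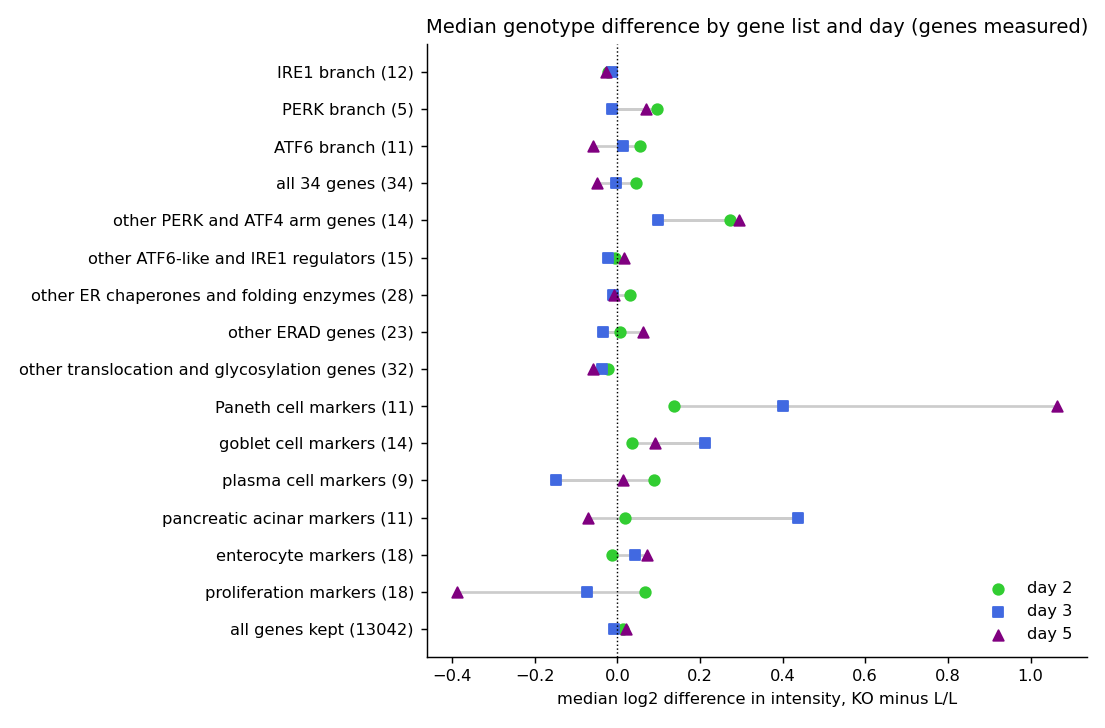
Median log2 difference, KO minus L/L (x axis), on days 2 (circle), 3 (square) and 5 (triangle) for the branches, the 34 genes, other lists of the pathway, cell type markers and all genes kept (rows, with the number of genes measured). The 3 branches stay between -0.06 and 0.10, the PERK and ATF4 arm genes lie between 0.10 and 0.30, and the Paneth cell markers reach 1.07 on day 5.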

How the data were processed

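The authors deposited 1 processed intensity per probe set for 6 Affymetrix 3' arrays, each hybridised with RNA pooled from 6 to 8 mice per the labels; Partek and RMA are named in the submitters' processing notes, without versions or roles. The intensities (3.82 to 31146) were linear with near-equal quartiles, and log2 was taken with no further normalization. The 64 control probe sets were left out. Of the other probe sets 34945 had 1 gene, 932 several and 9160 were not listed. For 34741 of those with 1 gene, the gene ID was found in RefSeq and its GRCm38.p6 name was used, whether or not it differed. Genes whose brightest probe set lay above the 40th percentile of mean log2 intensity (5.28, an intensity of 38.9) were kept.

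KO was tested against L/L with limma 3.58.1 in R 4.3.3 (lmFit, eBayes, two-sided) with day as a factor, with 2 residual degrees of freedom and 3.03 from the prior. The slope test added genotype times centred day, with 1 and 4.76. Both were adjusted by Benjamini-Hochberg over 13042 genes at 0.05. SD is over the 3 daily differences. Pooling hides the variation from mouse to mouse. Promoters are from RefSeq.

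The genes, branches and lists were chosen with earlier results of these data known. Values on every array were given for the sensors, the regulators, Hspa5, Hsp90b1 and the 5 members at either end of the mean differences and of the slopes. Genes named from other pathway lists were those past a test and the 3 largest mean differences. Ero1a, Sec61b, and list genes outside this rule were chosen after their values were seen. A planned count of protein C-termini was not made, as no protein sequences were used here. Alternatives covered probe set choice, filter, offset, scaling, eBayes settings, the day term and leaving out a day.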

Additional observations from a re-analysis of the deposited data

Results flagged for a closer look

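The genotype difference changed with day, by limma's slope test over all genes, in 7 genes of the lists and in 0 of the 34 members. Vldlr changed by 0.33 per day on the log2 scale (5 of 8 alternatives kept the call). Of the Paneth cell markers, Defa31 changed by 3.42 per day, Reg4 by 0.43 and Sox9 by 0.46. Defa31 had 2772, 8196 and 10116 in KO against 10152, 6213 and 35.3 in L/L, so its slope rests on an L/L day 5 array below the intensity threshold. Ada, an enterocyte enzyme, changed by 0.46 per day, and the mitotic genes Ccnb2 and Birc5 by -0.33 each. Each of these lost the call under at least 1 alternative, with adjusted p of up to 0.177.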

How the results depend on the processing

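No member passed either test under any alternative that was run, with a lowest adjusted p of 0.262 for a difference and 0.110 for a slope in limma. Of 470 member differences under the alternatives 34 changed sign, in 17 genes whose difference was at most 0.05 in size, and of 334 slopes 16 did. Genes called over the 3 days numbered 3, but 1 with the mean of all probe sets, 6 with a linear day term and 0 to 2 with a day left out. Genes called for the slope numbered 160, but 0 without the filter, 275 with the filter at the 60th percentile, 549 with an offset of 32 before log2, 531 with the trend setting of eBayes and 63 with the order of days in place of the day. The IRE1 branch median of -0.01 was -0.034 with the mean of all probe sets and -0.030 with arrays centred on the median. With a day left out it ran from -0.042 to 0.0019, the PERK branch median (0.05) from -0.017, without day 2, to 0.061, the count of members higher in KO on each remaining day from 6 to 12 and that of members lower from 7 to 11. Members at the fold minimum on any day numbered 0 at 2-fold and 5 at 1.2-fold. The mean Creld2 difference ran from 0.15 to 0.22 and the Canx slope from -0.24 to -0.12. The mean Canx difference ran from -0.32 to -0.10, the smallest without day 5. The tests reported pair KO and L/L by day, and the labels give no other pairing. Dropping the day term left 3 genes called and 0 members. Arrays give no read depth, and 6 arrays limit the precision; every member was above the intensity threshold on all of them.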
